A study of Mus musculus with 16 samples.

Results

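Adult mouse testis was compared with wild-type testis at postnatal day 18 (P18) in flow-through RNA. Flow-through is the RNA left in solution once J2, a monoclonal antibody to double-stranded RNA, had removed the fraction it binds. The comparison holds 5 of the 16 libraries of the series, 2 from adult and 3 from WT P18 testis. A gene entered it with a normalized value of 10 or more in at least 2 of these 5 libraries, which 5395 of 35920 genes had. Both groups are labelled wild type. The strain is given as unknown for the adult mice, whose age is stated only as adult, and as C57BL/6 x 129S4/SvJae for the P18 mice, so age and strain cannot be told apart. Another 3 flow-through libraries, labelled Dicer KO (Dcr-/-) at P18 with the strain label of the WT P18 mice, entered the fit for the estimate of spread. No label says that libraries of a group came from separate mice, so the p-values measure the spread among these libraries, and that spread may be technical.

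Spermatogenesis starts as a synchronous first wave after birth. At P18 the most advanced germ cells are generally spermatocytes in meiotic prophase, with round spermatids only just appearing. The adult testis adds round and elongating spermatids, in which histones are replaced by transition proteins and then by protamines, the acrosome forms over the nucleus and the tail is assembled. Many of the mRNAs for these steps are made in round spermatids and stored for later translation.

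The libraries were shallow outside a few very abundant features. The 10 highest features held 97.4% and 97.5% of the signal in adult libraries, against 97.2%, 95.8% and 96.7% in WT P18 libraries (difference 0.927 percentage points, two-sided exact permutation p = 0.2, which is the smallest p that 2 against 3 libraries allow). These are the 10 highest features of each library, and their make-up differed between the adult libraries. Gm42418 held 50.9% and 9.90% in adult libraries, against 60.4%, 52.8% and 43.3% in WT P18 libraries. Lars2 held 9.37% and 70.6% in adult libraries, against 2.99%, 3.94% and 16.2% in WT P18 libraries. Mitochondrial genes held 1.35% and 0.769% in adult libraries, against 0.993%, 2.70% and 1.75% in WT P18 libraries (exact permutation p = 0.4). From the value that most genes share in a library, 1 read was worth about 4.83 and 2.14 units in adult libraries, against 5.96, 2.0 and 8.31 units in WT P18 libraries. The 10 features with the highest mean over the 5 libraries and the mitochondrial genes were then left out. That leaves about 51079 and 132041 reads in adult libraries, against 40199, 89044 and 25107 in WT P18 libraries. A gene listed at 0 is therefore compatible with up to 3 reads, which are about 14.5 and 6.42 units in adult libraries and 17.9, 6.01 and 24.9 units in WT P18 libraries, counting error only. Over the tested genes the 2 adult libraries correlated at Spearman's rho 0.41 and the WT P18 pairs at 0.31 to 0.42, against 0.12 to 0.34 between an adult and a WT P18 library (across genes, which are not independent replicates).

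The labelled ages were set beside germ-cell markers. All 11 markers of round and elongating spermatids were above the 3 WT P18 libraries in both adult libraries, against 18.7% of all tested genes. Of the 11, 6 were listed at 0 in all WT P18 libraries, and several are among the largest rises named below. They were chosen with earlier results of these data known, so they are no independent check of the labels. The 11 markers summed to 2905 and 3026 in adult libraries, against 21.1, 7.74 and 15.6 in WT P18 libraries. In the 3 Dicer KO P18 libraries the same markers summed to 26.9, 18.2 and 6.34. The 8 markers of pachytene spermatocytes were each above 0 in both adult libraries and in at least 1 WT P18 library. They summed to 988 and 647 in adult libraries, against 543, 743 and 544 in WT P18 libraries. Sycp3 was at 0 in WT P18 replicates 1 and 3, Sycp1 and Pgk2 in replicate 1 and Ccna1 in replicate 3. Both adult libraries were above all WT P18 libraries for 2 of the 8 (Ccna1 and Pgk2) and below for 1 (Adam2). All 3 epididymal markers (Lcn5, Crisp1 and Gpx5) were listed at 0 in the 5 libraries.

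Most of the called genes were higher in the adult. In the fit (limma on log2(value + 1), Benjamini-Hochberg adjusted p under 0.05) 264 genes were higher in adult libraries, 4.89% of those tested, and 15 were lower, 0.278%. At an unadjusted p under 0.05 there were 786 genes. Of the 264 genes, 56 belong to any of the 34 gene lists, so the lists described below cover a minority of them. The median log2 difference over all tested genes was 0.37 (quartiles -0.65 and 1.51), so differences below are best read against that value. Both adult libraries lay above all WT P18 libraries for each of the 264 genes (18.7% of all tested genes), and below them for each of the 15 (9.3%).

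The number of calls rests on how genes absent at P18 are handled. Of the 264 genes, 175 were listed at 0 in all 3 WT P18 libraries, and 175 of the 185 tested genes with that pattern were called. Such a gene reached the test only through its adult values. The filter therefore fixed the sign and the smallest size of its difference, and the count of such genes supports nothing. In 54 of the 175 both adult values exceeded 24.9 units, the 3-read level of the shallowest WT P18 library. Of the other 89 genes, 82 were above 0 in WT P18 replicate 2, the WT P18 library with the most reads, 10 in replicate 1 and 5 in replicate 3. When a value above 0 in at least 1 WT P18 library was also required, 2 genes rose (Prm1 and Prm2) and 2 fell (Col3a1 and Col1a1). Requiring 10 in 2 WT P18 libraries left 0 calls (272 genes at an unadjusted p under 0.05). With 1 adult library left out and the filter applied to the 4 libraries left, genes absent at P18 could not be tested, and 0 rose without adult replicate 1 (197 at an unadjusted p under 0.05) or without adult replicate 2 (334). With the same 5395 genes tested, 187 and 202 rose without adult replicate 1 and 2, of which 186 and 198 were among the 264. Of the 15 lower genes only 2 and 3 were called again in those fits, and 4, 8 and 6 without WT P18 replicate 1, 2 and 3.

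**Figure D1:**
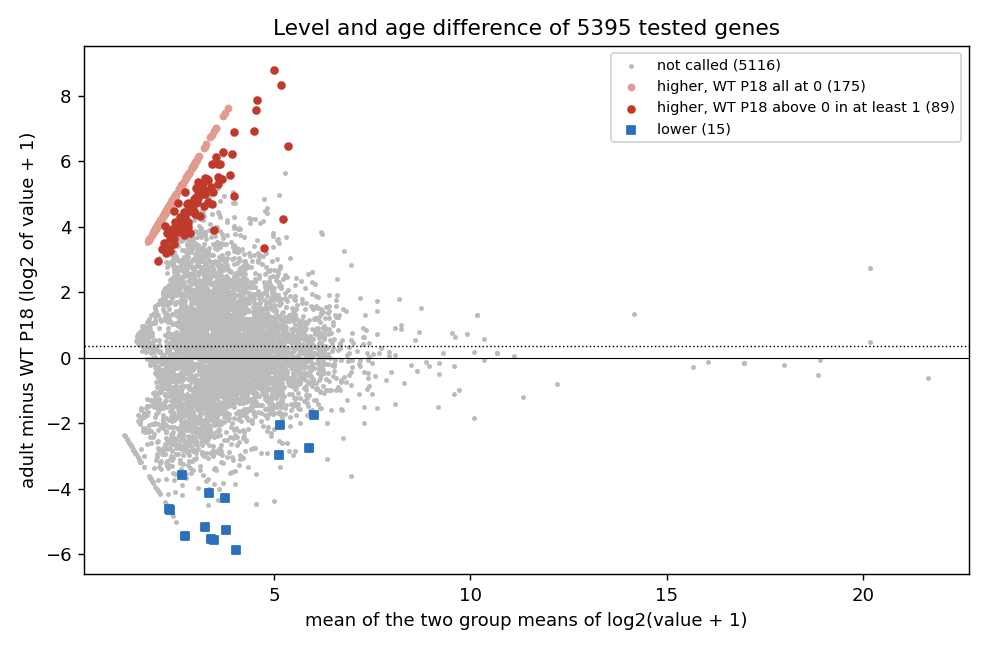
Each point is 1 of the 5395 tested genes, placed by the mean of both group means (x) and the adult minus WT P18 difference (y), both on the log2(value + 1) scale. The dotted line marks the median difference of 0.37. The 175 called genes at 0 in all WT P18 libraries lie on the straight upper edge, where the WT P18 mean is 0 and the difference equals the adult mean. The filter sets only how low on that edge a gene can lie. The other 89 called higher genes lie close to it, and the 15 lower genes (squares) are spread below.

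The 264 genes were also read in the other libraries. The Dicer KO P18 flow-through libraries took part in the fit, so their levels are a description only. Both adult flow-through libraries were above all 3 of them for 262 of the 264 (99.2%), against 22.3% of all tested genes. Rec8 and 2810408A11Rik were the exceptions. The J2-bound libraries were not in that fit, but they carry the same tissue codes as the flow-through libraries, so they are a second fraction of the same samples and not further animals. In J2 both adult libraries were above all 3 WT P18 libraries for 220 of the 264 (83.3%), against 20.3% of all tested genes. Of the 264, 163 (61.7%) were listed at 0 in all 3 WT P18 J2 libraries, against 5.75% of all tested genes. In the adult and WT P18 J2 libraries 1 read was worth about 0.116 to 0.426 units, less than in any flow-through library of either age. Among the 101 genes with a WT P18 J2 value above 0 both adult libraries were above for 72 (71.3%), against 862 of 5085 tested genes (17%).

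In the J2 fit 404 of 5241 genes (7.71%) were higher and 37 (0.706%) lower in adult libraries, or 374 and 85 after quantile normalization. Of the 264 genes 179 could be tested there and 154 were higher. All 111 of the 179 that were at 0 in every WT P18 J2 library were among these 154, and such genes passed the J2 filter only through their adult values, so those calls support nothing. Of the 68 genes with a WT P18 J2 value above 0, 43 were higher in J2 (63.2%), against 103 of the 3525 genes with such a value that were tested in both fractions (2.92%).

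Protamines and transition proteins, the basic proteins that pack the sperm genome, stood at the top. Prm1 (protamine 1, chromosome 16, 10796332 to 10796823, GRCm38.p6, the assembly that mm10 names) had 524 and 855 units in adult libraries, against 0, 2.44 and 0 in WT P18 libraries. Prm2, the second protamine, had 799 and 531 units in adult libraries, against 7.11, 0 and 0 in WT P18 libraries. The WT P18 values stand for about 1 read, and no library of one age came near the range of the other. Prm1 differed by 8.79 on the log2 scale (SE 1.03, limma adjusted p = 0.00054) and Prm2 by 8.34 (SE 1.21, limma adjusted p = 0.0024). Tnp2, a transition protein that lies with both protamines within 10787935 to 10796823 of chromosome 16, had 503 and 288 units in adult libraries, against 6.74, 0 and 9.30 in WT P18 libraries (log2 difference 6.47, SE 1.32, limma adjusted p = 0.019). Tnp1, the other transition protein, on chromosome 1 (73015074 to 73015899), had 176 and 95.2 units in adult libraries and was listed at 0 in the 3 WT P18 and the 3 Dicer KO P18 libraries. Hmgb4, a testis HMG-box protein, had 39.9 and 22.6 units in adult libraries and was listed at 0 in all WT P18 libraries. Of the 11 matched genes of spermatid chromatin 9 were tested, 6 rose and 0 fell, against 4.89% of all tested genes that rose, and their median log2 difference was 6.47. Of the 6, 3 (Tnp1, Hmgb4 and Tssk6) were at 0 in all WT P18 libraries and reached the test only through their adult values. With a value above 0 in 1 WT P18 library required, 6 were tested, 2 rose and the median was 3.50, and with 10 in 2 WT P18 libraries 2 were tested, 0 rose and the median was -0.015. Their summed level was 2312 ± 24.8 in adult libraries (SD, n = 2) and 172 ± 66.6 in WT P18 libraries (SD, n = 3), a ratio of 13.5, and the groups did not overlap under the deposited scale or either rescaling to a common total.

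**Figure D2:**
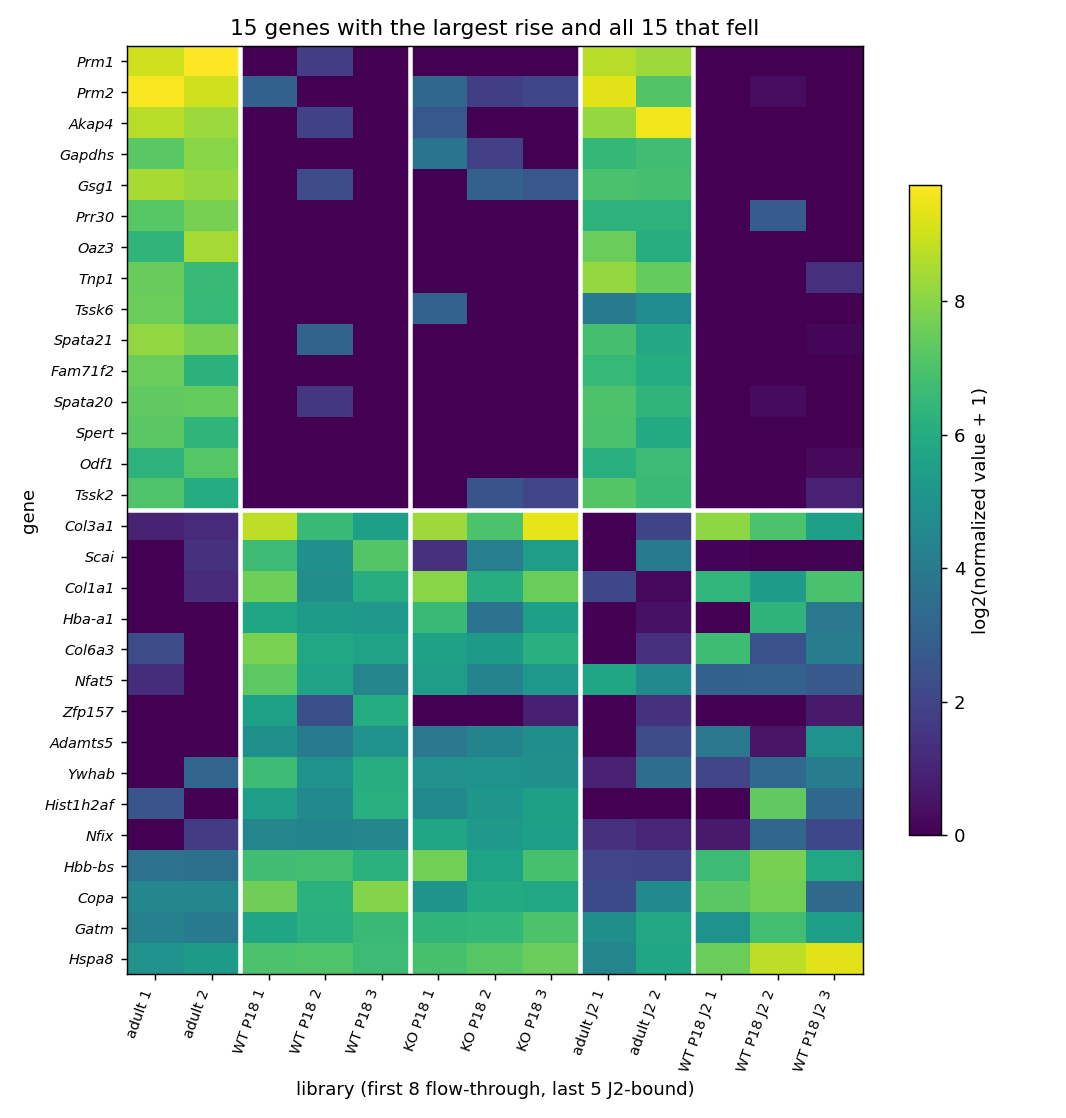
Colour shows log2(normalized value + 1) for the 15 genes with the largest rise (upper block) and all 15 that fell (lower block) in each library, in the order adult, WT P18 and Dicer KO P18 flow-through, then adult and WT P18 J2. The upper block is high in the adult libraries of both fractions and at or near 0 at P18, while the lower block is less even, with Scai and Zfp157 low in WT P18 J2 libraries and Nfat5 higher in adult J2 libraries.

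The start regions of these genes were read because members that move together may share sequence near their starts. CREM, an activator of many spermatid genes in mouse, is known to bind cAMP response elements, whose full form is TGACGTCA. The 250 bases before the start in RefSeq (GRCm38.p6) were available for 12 of the 15 genes with the largest rise, and Oaz3, Spert and Odf1 were not in that table. The table holds 1 window for each annotated transcript start, so a gene can have several, and the start is not always the outer end of the gene. The full form was searched together with a looser form, TGANNTCA, in which any pair may stand in the middle. The looser form was chosen after the windows of a few of these genes had been seen, and both forms read the same on both strands. For the 8 genes with a match, the match nearest the start is given with 11 bases on each side, in the direction of the gene, with the match in capitals.

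Prm1: ctggtcctcttTGACTTCAtaattcctagg
Akap4: tatagaaacagTGATGTCAtgaattttaag
Gapdhs: attgatcaatgTGACATCAtcagaagctca
Gsg1: acatcacagaaTGAAGTCAtagtaacccat
Tnp1: gcaaaggttagTGATGTCAcaagagagctg
Fam71f2: tagccttttttTGATGTCActcctgccatt
Spata20: atgaccctctcTGACCTCAcagataccctt
Tssk2: gcccagctttaTGACTTCAttcgctggtca

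The Prm1 stretch lies at chr16:10796869-10796898 on the minus strand and its match begins 64 bases before the start. Those of Akap4 (chrX:7067469-7067498, plus strand) and Gapdhs (chr7:30739441-30739470, minus strand) begin 35 and 52 bases before it. Those of Gsg1 (chr6:135254340-135254369, minus strand) and Tnp1 (chr1:73015975-73016004, minus strand) begin 22 and 94 bases before it. The matches of Fam71f2 (chr6:29281068-29281097, plus strand), Spata20 (chr11:94485340-94485369, minus strand) and Tssk2 (chr16:17898568-17898597, plus strand) begin 62, 48 and 58 bases before it. For Gapdhs the start used, 30739407, lies 5384 bases inside the gene (chromosome 7, 30729779 to 30744791), and for Fam71f2 the start, 29281141, lies 3613 bases inside it (chromosome 6, 29277528 to 29290684). For the other 6 genes the start is the outer end of the gene. None of these 8 matches is the full form. In Prm2, Prr30, Tssk6 and Spata21 the window held no match to either form.

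The looser form was found before the start for 78 of the 216 higher genes with a window (36.1%), against 407 of 3964 tested genes that were not called higher (10.3%) and 13.5% of all 27025 genes in the table. In genes with a single window the shares were 31.3% (52 of 166), 8.58% and 12.3% in the same 3 sets. Among higher genes above 0 in at least 1 WT P18 library the share was 34.2% (26 of 76), and among those listed at 0 in all of them 37.1% (52 of 140). Forms with a mixed middle pair, TGATGTCA or its reverse complement TGACATCA, were found for 19% of the higher genes, against 1.94% of the tested genes not called higher and 3.41% of all genes. The forms with a mixed middle pair are part of the looser form. They are the matches printed above for Akap4, Gapdhs, Tnp1 and Fam71f2, which are counted among the higher genes. Nothing shows that these forms were chosen before those sequences were seen, so their share is a description only. For the full form the shares were 4.63%, 3.36% and 1.77% in the same 3 sets. Of the 108 matches to the looser form in higher genes, 84.3% began in the last 100 bases before the start, against 55.1% of the 465 matches in tested genes not called higher. These shares describe letters in the windows, their differences were not tested and binding was not measured.

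**Figure D3:**
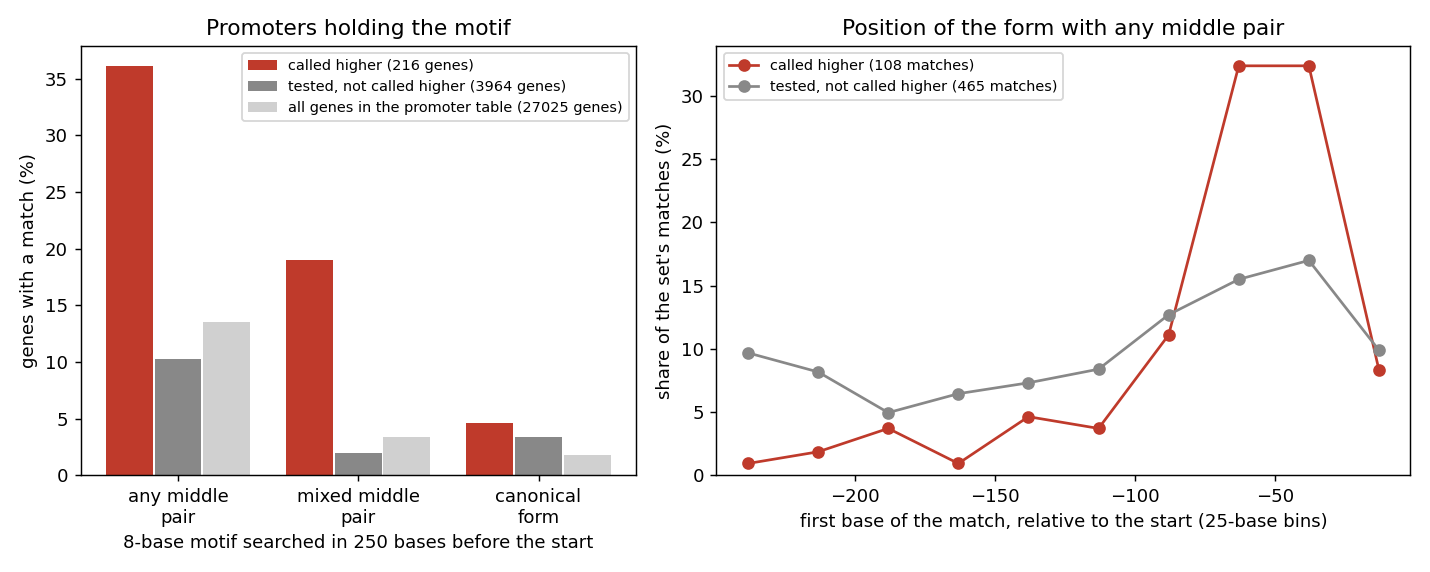
Left, bars give the share of genes with a match in the 250 bases before the start for the form with any middle pair, the mixed middle pair and the full form (canonical), in genes called higher, tested genes not called higher and all genes of the table. Right, points give the share of each set's matches to the form with any middle pair in 25-base bins of distance from the start. Matches of the higher genes gather between 75 and 26 bases before the start, with 32.4% in each of 2 bins, against 15.5% and 17% for the other tested genes.

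Genes of the sperm tail also rose. Akap4, the main scaffold protein of the fibrous sheath around the tail (chromosome X, 7067515 to 7078609), had 412 and 312 units in adult libraries, against 0, 2.65 and 0 in WT P18 libraries (log2 difference 7.87, SE 1.25, limma adjusted p = 0.0042). Its partner Akap3 had 129 and 97.5 units in adult libraries, against 0, 2.08 and 0 in WT P18 libraries (log2 difference 6.28, SE 0.97, limma adjusted p = 0.0036). Both were low in every P18 library and their groups lay far apart. Odf1, a structural protein of the outer dense fibres, had 78.2 and 145 units in adult libraries and was listed at 0 in all WT P18 libraries. Oaz3, the testis form of ornithine decarboxylase antizyme, had 81.9 and 343 units in adult libraries and was likewise listed at 0, with an uneven level between both adult libraries. Of 33 matched tail sheath and dense fibre genes 30 were tested, 11 rose and 0 fell, with a median log2 difference of 3.34, and both adult libraries were above all WT P18 libraries for 23, against 18.7% of all tested genes that lay above and 4.89% that rose. Of the 11 that rose, 7 were at 0 in all WT P18 libraries, and with a value above 0 in 1 of those required, 23 were tested, 0 rose and the median was 2.39. The list summed to 3112 ± 562 in adult libraries (SD, n = 2) and 650 ± 131 in WT P18 libraries (SD, n = 3), and did not overlap under either rescaling.

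Odf2 and Tcp11 were detected in every WT P18 library. Odf2, an outer dense fibre and centriole protein, had 206 and 537 units in adult libraries, against 102, 68.7 and 13.4 in WT P18 libraries (log2 difference 2.83, limma adjusted p = 0.12). Tcp11, a testis protein, had 177 and 273 units in adult libraries, against 53.3, 66.2 and 19.4 in WT P18 libraries (limma adjusted p = 0.16). Smcp, a cysteine-rich protein of the mitochondrial capsule of the midpiece, had 117 and 142 units in adult libraries, against 7.27, 2.65 and 6.28 in WT P18 libraries, which stand for about 1 read each (log2 difference 4.43, limma adjusted p = 0.090). Groups did not overlap for these 3 genes, and none passed the test. The axoneme, the motor of the tail, gave no calls. Of 31 tested axoneme and cilium genes of 44 matched, 0 rose and 0 fell, with a median log2 difference of 0.84. Their summed level was 1653 ± 141 in adult libraries (SD, n = 2) and 1014 ± 331 in WT P18 libraries (SD, n = 3), a ratio of 1.63, and the groups overlapped under both rescalings to a common total, with ratios of 1.02 and 1.25. Dnah8, a dynein heavy chain, had 265 and 235 units in adult libraries, against 58.6, 181 and 94.0 in WT P18 libraries (limma adjusted p = 0.41).

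Kinases and cytoskeletal proteins of the spermatid head formed another group. Actl7a, an actin-like protein of the spermatid head, had 55.3 and 73.2 units in adult libraries, and Actrt2, a related protein, had 55.6 and 54.8. Both were listed at 0 in all WT P18 libraries. Tssk2, a testis-specific serine kinase, had 132 and 63.5 units in adult libraries and was listed at 0 in all WT P18 libraries. Its neighbour Tssk1, whose gene lies next to it on chromosome 16 (17894203 to 17895653), had 71.2 and 22.8 units in adult libraries, against 0, 2.61 and 0 in WT P18 libraries (log2 difference 4.76, SE 0.97, limma adjusted p = 0.019). Tssk6, a kinase of the same family that is counted in the spermatid chromatin list, had 185 and 90.4 units in adult libraries and was listed at 0 in all WT P18 libraries. Of 20 matched actin-like, capping and kinase genes 15 were tested, 10 rose and 0 fell, against 4.89% of all tested genes that rose. The median log2 difference of the 15 was 4.22. Of the 10, 8 were at 0 in all WT P18 libraries, and with a value above 0 in 1 of those required, 7 were tested, 0 rose and the median was 1.32. They summed to 651 ± 90.1 in adult libraries (SD, n = 2) and 134 ± 40.1 in WT P18 libraries (SD, n = 3).

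Gapdhs, the glycolytic enzyme that spermatids use in place of Gapdh and that is bound to the fibrous sheath, had 152 and 260 units in adult libraries and was listed at 0 in all WT P18 libraries. Aldoart2, a retrogene of aldolase A, had 20.8 and 44.7 units in adult libraries and was listed at 0 in the same way. Ldhc, the lactate dehydrogenase already made in spermatocytes, had 392 and 159 units in adult libraries, against 143, 189.98 and 127 in WT P18 libraries (limma adjusted p = 0.54), with overlapping groups. Of 16 tested genes of glycolysis in germ cells 2 rose and 0 fell, against 4.89% of all tested genes that rose. The median log2 difference of the 16 was 1.49, and both genes that rose were at 0 in all WT P18 libraries.

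The acrosome list was divided. Of 40 matched genes 21 were tested, 5 rose and 0 fell, against 4.89% of all tested genes that rose. The median log2 difference of the 21 was 1.59. Of the 5, 3 were at 0 in all WT P18 libraries, and with a value above 0 in 1 of those required 0 rose. Acrv1, an acrosomal matrix protein, had 43.3 and 10.5 units in adult libraries, and Spag4, which stands in the list although it is a SUN-domain protein of the spermatid nuclear envelope, had 20.4 and 25.9. Both were listed at 0 in all WT P18 libraries. Zp3r, a matrix protein of the acrosome in mouse, had 17.1 and 15.8 units in adult libraries, against 0, 2.05 and 0 in WT P18 libraries (log2 difference 3.59, SE 0.58, limma adjusted p = 0.0045). Zpbp, a protein of the inner acrosome, had 164 and 97.9 units in adult libraries, against 16.3, 50.8 and 46.6 in WT P18 libraries (limma adjusted p = 0.18). Crisp2 and Spink2 overlapped between the ages. The summed level of the list did not overlap on the deposited scale (1056 ± 118 in adult libraries, SD, n = 2, and 382 ± 122 in WT P18 libraries, SD, n = 3), but it did after rescaling to a common total over all genes.

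Genes named for their spermatogenesis-associated or testis expression, Spata and Tex, gave 11 that rose and 0 that fell of 29 tested (55 matched), with a median log2 difference of 3.02. Of the 11, 7 were at 0 in all WT P18 libraries, and with a value above 0 in 1 of those required, 22 were tested, 0 rose and the median was 1.31. Spata20, a thioredoxin-like protein of spermatids, had 164 and 175 units in adult libraries, against 0, 1.98 and 0 in WT P18 libraries (log2 difference 6.89, SE 0.83, limma adjusted p = 0.00067). Spata21 had 283 and 216 units in adult libraries, against 0, 7.57 and 0 in WT P18 libraries (log2 difference 6.92, SE 1.15, limma adjusted p = 0.0054). Their adult levels were even and their P18 levels close to the floor. Gsg1, a germ-cell protein that binds a testis poly(A) polymerase, had 356 and 289.7 units in adult libraries, against 0, 3.78 and 0 in WT P18 libraries (log2 difference 7.58, SE 1.33, limma adjusted p = 0.0077). Prr30, Fam71f2 and Spert, which complete the 15 largest rises, had 147 and 216, 188 and 75.7, and 152 and 82.0 units in adult libraries, and each was listed at 0 in all WT P18 and all Dicer KO P18 libraries. Genes known only by RIKEN clone names gave 32 of the 264, or 22.4% of the 143 tested, against 4.89% of all tested genes. None of the 32 rose when a value above 0 in 1 WT P18 library was required.

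Of 19 tested regulators of the spermatid programme 3 rose and 0 fell, against 4.89% of all tested genes that rose. The median log2 difference of the regulators was 1.30. Of the 3, 1 (Fhl5) was at 0 in all WT P18 libraries and reached the test only through its adult values. With a value above 0 in 1 WT P18 library required, only Prm1 and Prm2 rose over all genes. So none of the genes described next did. Fhl5 (also called ACT), a coactivator of CREM in mouse, had 15.3 and 32.8 units in adult libraries and was listed at 0 in all WT P18 libraries. Kif17, a kinesin that controls the location of that coactivator in mouse, had 40.4 and 56.4 units in adult libraries, against 0, 1.36 and 0 in WT P18 libraries (log2 difference 5.19, SE 1.04, limma adjusted p = 0.017). Spz1, a spermatogenic helix-loop-helix leucine zipper factor, had 31.9 and 87.1 units in adult libraries, against 7.96, 0 and 0 in WT P18 libraries (log2 difference 4.70, SE 1.06, limma adjusted p = 0.033). Gtf2a1l, the testis form of a TFIIA subunit, was present at both ages with 197 and 89.1 units in adult libraries, against 40.2, 74.4 and 42.8 in WT P18 libraries (limma adjusted p = 0.27). Of 30 tested genes of mRNA storage and translation 1 rose, Paip2b, an inhibitor of poly(A)-binding protein, with 55.0 and 50.1 units in adult libraries, against 0, 1.14 and 0 in WT P18 libraries (limma adjusted p = 0.0091). Pabpc1 itself had 136 and 476 units in adult libraries, against 106, 373 and 296 in WT P18 libraries.

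Of 16 tested genes of the synaptonemal complex and meiotic cohesin 1 rose and 0 fell, against 4.89% of all tested genes that rose. The gene that rose was Rec8, a meiotic cohesin, with 17.6 and 22.4 units in adult libraries and 0 in all WT P18 libraries. Rec8 had 25.4, 5.99 and 3.04 units in the Dicer KO P18 libraries, the first above both adult values. Stag3, another meiotic cohesin, had 114 and 111 units in adult libraries, against 72.7, 105 and 99.4 in WT P18 libraries (limma adjusted p = 0.78). Sycp2, an axial element protein, had 40.9 and 17.3 units in adult libraries, against 103, 55.1 and 74.0 in WT P18 libraries (log2 difference -1.46, limma adjusted p = 0.31). Of 12 tested genes of meiotic recombination 0 rose and 0 fell (median log2 difference -0.90). The median was 0.12 over the 26 members tested when a value above 0 in 2 libraries was enough. Brca2, a recombination mediator, had 0 and 23.1 units in adult libraries, against 107, 77.9 and 148 in WT P18 libraries (log2 difference -4.46, limma adjusted p = 0.079). The summed level of that list was below WT P18 in both adult libraries under all 3 scalings (1015 ± 550.4 in adult libraries, SD, n = 2, and 1731 ± 268 in WT P18 libraries, SD, n = 3, as deposited). Most of that sum was H2afx, with 1051 and 342 units in adult libraries, against 1559, 860 and 1217 in WT P18 libraries. The groups overlapped for H2afx (limma adjusted p = 0.51). Of 18 tested piRNA pathway genes 2 rose, Kif17 and Gtsf1l, a relative of the piRNA factor Gtsf1, which had 111 and 61.0 units in adult libraries, against 0, 1.65 and 0 in WT P18 libraries (log2 difference 5.91, SE 0.73, limma adjusted p = 0.00080). With a value above 0 in 1 WT P18 library required, Rec8 was not tested and neither Kif17 nor Gtsf1l rose. Piwil1 (MIWI) and Mael had overlapping levels at both ages.

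**Figure D4:**
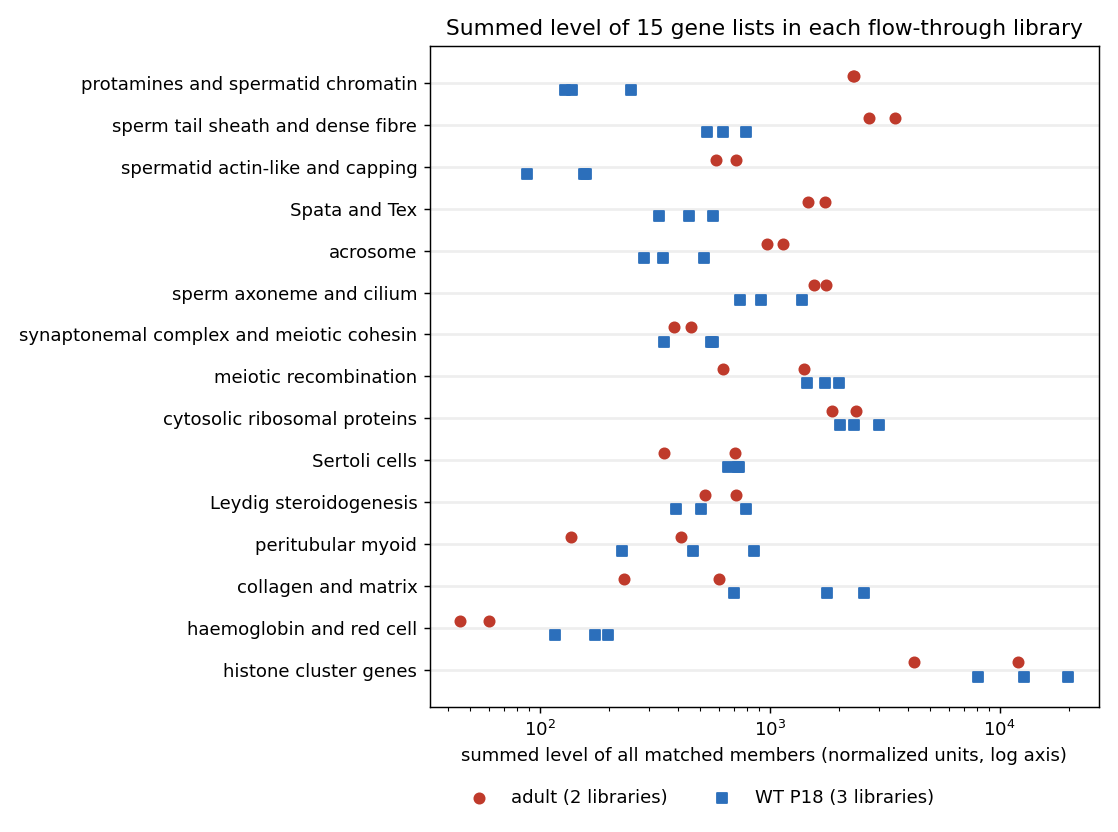
Each row is a gene list and each point the summed normalized value of all its matched members in 1 flow-through library (log axis), with adult libraries (circles) above WT P18 libraries (squares). On the deposited scale drawn here the spermatid chromatin, tail sheath, actin-like, Spata and Tex, acrosome and axoneme lists are apart with adult libraries higher. Of these the axoneme list overlaps under both rescalings and the acrosome list under 1. The meiotic recombination, collagen and haemoglobin lists are apart with adult libraries lower. The other 6 lists overlap on this scale. Among them, the Sertoli and cytosolic ribosomal protein lists lie lower in adult libraries under both rescalings. The peritubular and histone lists do so under 1.

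Matrix and blood genes were among the 15 that were lower. Col3a1, a fibrillar collagen chain, had 0.941 and 1.28 units in adult libraries, against 437, 96.9 and 43.8 in WT P18 libraries (log2 difference -5.88, SE 0.96, limma adjusted p = 0.0049). Col1a1, the main chain of type I collagen, had 0 and 1.31 units in adult libraries, against 192, 26.8 and 66.1 in WT P18 libraries (log2 difference -5.55, SE 0.93, limma adjusted p = 0.0055). Col6a3, a chain of the microfibrillar collagen VI, had 3.79 and 0 units in adult libraries, against 219, 55.4 and 47.3 in WT P18 libraries (log2 difference -5.27, SE 0.92, limma adjusted p = 0.0074). The adult values of all 3 are under 3 reads and the WT P18 values vary several-fold. Of 54 matched collagen and matrix genes 27 were tested, 0 rose and 3 fell, with a median log2 difference of -1.90, and both adult libraries were below all WT P18 libraries for 12, against 9.3% of all tested genes that lay below and 0.278% that fell. The list summed to 417 ± 260.0 in adult libraries (SD, n = 2) and 1685 ± 939 in WT P18 libraries (SD, n = 3) and was below under all 3 scalings. In these bulk samples, fewer cells of a type and less RNA per cell cannot be told apart. Adamts5, a protease that cleaves matrix proteoglycans, was listed at 0 in both adult libraries and had 28.7, 14.6 and 30.3 units in WT P18 libraries (limma adjusted p = 0.027).

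Of the haemoglobin genes, Hba-a1 was listed at 0 in both adult libraries, against 52.6, 41.0 and 36.3 units in WT P18 libraries (limma adjusted p = 0.0088). Hbb-bs had 11.4 and 11.1 units in adult libraries, against 107, 111 and 74.3 in WT P18 libraries (log2 difference -2.98, SE 0.61, limma adjusted p = 0.019). It was also lower in the J2 fraction (log2 difference -4.77, limma adjusted p = 0.0037), while Hba-a1 did not pass there (limma adjusted p = 0.43). Car2, a member of the same list, went the other way, with 16.6 and 27.4 units in adult libraries and 0 in all WT P18 libraries (limma adjusted p = 0.11). The list median was -2.97 over 4 tested members, but 0.09 over the 7 tested when a value above 0 in 2 libraries was enough. Hspa8, the constitutive heat-shock cognate chaperone, had 30.1 and 38.9 units in adult libraries, against 124, 132 and 102 in WT P18 libraries (log2 difference -1.76, SE 0.38, limma adjusted p = 0.026), and it was lower in J2 as well (limma adjusted p = 0.011). Nfix, a transcription factor of the nuclear factor I family, had 0 and 2.27 units in adult libraries, against 20.9, 19.8 and 21.6 in WT P18 libraries (log2 difference -3.59, SE 0.87, limma adjusted p = 0.047).

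Some of the other lower genes read differently in the J2 or Dicer KO P18 libraries. Nfat5, a transcription factor of the osmotic response, had 1.40 and 0 units in adult libraries, against 156, 51.2 and 20.6 in WT P18 libraries (limma adjusted p = 0.014). In J2 it ran the other way, with 51.7 and 23.9 units in adult libraries, against 7.23, 7.36 and 5.53 in WT P18 libraries (limma adjusted p = 0.48). Scai, a repressor of actin-regulated transcription, had 0 and 1.61 units in adult libraries, against 102, 28.8 and 141 in WT P18 libraries (limma adjusted p = 0.044), and 1.64, 16.99 and 43.2 in the Dicer KO P18 libraries. Zfp157 was listed at 0 in both adult libraries, against 47.1, 4.16 and 65.0 units in WT P18 libraries, and was at 0, 0 and 0.818 in the Dicer KO P18 libraries. Over all 15, both adult J2 libraries were below all 3 WT P18 J2 libraries for 5 (33.3%, against 7.53%). Copa, Gatm, Ywhab and Hist1h2af, a replication-dependent histone H2A, were the remaining members, with limma adjusted p = 0.026 for Copa and 0.039 for Ywhab at the ends of their range.

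Somatic markers were thin at both ages. Of 19 tested Sertoli genes of 47 matched 0 rose and 0 fell, with a median log2 difference of -1.03. The summed level of the Sertoli list overlapped as deposited. It was below WT P18 in both adult libraries under both rescalings to a common total (ratios 0.50 and 0.60). Clu, a secreted Sertoli chaperone, had 283 and 69.9 units in adult libraries, against 167, 135 and 144 in WT P18 libraries. Of the 8 Sertoli markers 4 (Sox9, Amh, Rhox5 and Fshr) were listed at 0 in both adult libraries. Amh was also at 0 in all WT P18 libraries, and Sox9, Rhox5 and Fshr were above 0 in only 1 each (9.32, 18.1 and 6.86 units). Cldn11, not tested, went the other way, with 8.40 and 10.2 units in adult libraries, against 0, 3.04 and 0 in WT P18 libraries. Inha, the inhibin alpha subunit, had 0 and 1.61 units in adult libraries, against 23.6, 12.1 and 41.5 in WT P18 libraries (log2 difference -3.89, limma adjusted p = 0.26). Of 17 tested Leydig genes 0 rose and 0 fell. Cyp17a1, the androgen-forming lyase of Leydig cells, had 84.9 and 61.8 units in adult libraries, against 27.7, 21.6 and 36.9 in WT P18 libraries (log2 difference 1.34, limma adjusted p = 0.33), and Cyp11a1, which makes pregnenolone, had 21.4 and 23.6 units in adult libraries, against 21.7, 34.4 and 68.8 in WT P18 libraries. The groups were apart for Cyp17a1 and overlapped for Cyp11a1. Among smooth-muscle genes of peritubular cells Acta2 had 128 and 27.9 units in adult libraries, against 305, 103 and 198 in WT P18 libraries (limma adjusted p = 0.31). The sum of the peritubular list was below WT P18 in both adult libraries only with the common total over all genes. Adult replicate 1 was above adult replicate 2 in the sums of the Sertoli, peritubular, collagen and histone lists. The peritubular list gave 1 rise, Actg2 (an enteric smooth-muscle actin, 60.0 and 25.4 units in adult libraries), and the leukocyte list 1, Aif1 (18.1 and 20.4 units in adult libraries), both listed at 0 in all WT P18 libraries. None of the 19 matched endothelial genes reached the test.

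Histone cluster genes are mostly made in S phase, with germ-cell forms such as Hist1h2ba among them. They gave 0 rises and 1 fall in 52 tested, against 0.278% of all tested genes that fell. The median log2 difference of the 52 was -1.12. Hist1h1a, a linker histone, had 407 and 292 units in adult libraries, against 1359, 683 and 1005 in WT P18 libraries (log2 difference -1.50, limma adjusted p = 0.093). Both adult libraries were below all WT P18 libraries for 19 of the 52 (9.3% of all tested genes), while the summed level overlapped as deposited. That sum was below WT P18 in both adult libraries only with the common total over all genes. Of 74 tested cytosolic ribosomal protein genes 0 rose and 0 fell (median log2 difference -0.21). Of 45 nuclear genes of the respiratory chain 0 rose and 0 fell (median -0.19). Both list sums overlapped as deposited. Under both rescalings they were below WT P18 in both adult libraries, with ratios of 0.58 and 0.68 for each list. The medians of the cyclin, mRNA storage, chaperone, synaptonemal, small nucleolar RNA, spermatogonial and leukocyte lists changed sign under at least 1 rescaling, and no direction is given for them. When all genes above 0 in 2 libraries were tested, the medians of the meiotic recombination, haemoglobin, respiratory chain and long noncoding RNA lists also changed sign.

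Higher genes were found on every autosome and on the X chromosome. On X 5 of 73 tested genes rose (6.85%), against 4.89% of all tested genes and 9.52% on chromosome 6, the highest share of any chromosome. The 5 were Akap4, Tsga8, Asb9, Cypt3 and Cylc1. Tsga8 had 36.4 and 24.4 units and Cypt3 28.8 and 15.4 units in adult libraries, and both were listed at 0 in all WT P18 and Dicer KO P18 libraries. By biotype 248 of the higher genes were protein-coding and 9 were lncRNAs, of 5003 and 64 tested.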

How the data were processed

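The deposited table holds 1 signal value per gene and library, which the authors made on a normalized count scale. The submitters' processing notes name FastQC, Trimmomatic, Salmon, DESeq2 and mm10, and their settings are not given in the sources used here. Per the labels' protocols, a strand-specific low-input kit was used, and ribosomal and double-stranded RNA had been depleted from the flow-through. Values are not whole reads, so no count model was used.

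Of 35920 genes, 35446 had a symbol and 0 of the columns were left over. Coordinates and promoter windows are RefSeq GRCm38.p6. Genes with a value of 10 or more in 2 of the 5 libraries were tested over the 8 flow-through libraries with limma 3.58.1 (R 4.3.3) on log2(value + 1) (empirical Bayes with a mean trend, two-sided, Benjamini-Hochberg adjustment over all tested genes, threshold 0.05). Log2 differences are on that scale, understate the change of low genes, and are no bound where a group is at 0, which also holds for list medians. The J2 comparison and the age by fraction interaction (all 16 libraries) were fitted alike. The fitting code was run on simulated data as a check of the code only. The worth of 1 read is the modal value of a library. Multiples of it were seen for 1 and 4 of the 20 checked in adult libraries and 0, 2 and 0 in WT P18 libraries, so read numbers are approximate.

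The members and lists were chosen with earlier results of these data known. Named genes, 154 in all, are the 15 largest differences in each direction among called genes whose groups do not overlap, and the 10 highest features. From each list come the 3 highest tested members with up to 4 called ones. Only part of these genes is described above. Most of the 10 highest features and some high list members are left out. Among those members are Slc2a3 (glycolysis, log2 difference -0.57), Capza1 (actin-like, -0.43), Sparc (matrix, -1.99) and Lama2 (matrix, -0.55), which were not called. Marker genes, Tsga8, Asb9, Cypt3, Cylc1, Hmgb4 and Tssk1 were also named from lists or counts after their values were seen. The lists also hold Trf (regulators), Adamts1 (ADAM), Pgk2, Pdia6, Spag4 and the Catsper channels (acrosome), placed there in error, of which Spag4 was called. Further lists, of ADAM proteins (7 tested, 2 higher), chaperones (21 tested, 3 higher and 1 lower), proteasome subunits (28 tested), mitochondrial ribosomal proteins (18 tested), RNA silencing and double-stranded RNA binding (15 tested), small nucleolar RNAs (20 tested), cyclins (20 tested), spermatogonia (7 tested), epididymis (1 tested), long noncoding RNAs (6 tested) and mitochondrial RNAs (11 mRNAs and 3 others tested), gave no other call.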

Additional observations from a re-analysis of the deposited data

Results flagged for a closer look

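The age difference of 1 gene differed between fractions by the test of the difference itself (1 higher of 5395 genes, 0.0185%, and 0 lower, with 326 genes at an unadjusted p under 0.05). Itpr3os, an opposite-strand lncRNA on chromosome 17 (27099654 to 27101450), had 22.7 and 22.3 units in adult flow-through libraries and was listed at 0 in the 3 WT P18 flow-through libraries. In J2 it had 1.25 and 1.27 units in adult libraries and was again listed at 0 in WT P18 libraries. The gene passed the filter only through its adult flow-through values. These lie under 24.9 units, the 3-read level of WT P18 replicate 3, so its 0 in that library cannot be told from a level like the adult one. They lie above the 3-read levels of WT P18 replicates 1 and 2, 17.9 and 6.01 units. The flow-through minus J2 difference of the age effects was 3.38 on the log2 scale (SE 0.54, limma adjusted p = 0.039). The adult flow-through values averaged 22.5 ± 0.298 units (SD, n = 2). The call was absent with every other pseudocount, filter, scaling, trend and block setting tried and without any of the WT P18 J2 libraries, and the gene could not be tested without either adult flow-through library.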

How the results depend on the processing

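Against 264 higher and 15 lower genes, testing all genes above 0 in 2 libraries gave 495 higher, and a minimum of 50 gave 47 higher and 9 lower. Quantile normalization gave 40 lower, the 5 libraries alone 188 higher and 4 lower, and adult against the mean of WT and Dicer KO P18 26 lower. In alternatives chosen after seeing the data, requiring a value above 0 in 1 WT P18 library left 2 higher and 2 lower, and 10 in 2 of them 0 and 0. Leaving out 1 library gave 0 to 326 higher and 0 to 40 lower, and with the same genes tested 187 to 284 higher and 7 to 25 lower. In J2, against 404 higher and 37 lower, the same changes gave 819 higher (above 0), 82 higher (50), 85 lower (quantile) and 12 lower (5 libraries), and leaving out 1 library gave 0 to 426 higher and 13 to 53 lower. For age by fraction, a pseudocount of 5, either other filter, quantile normalization, the total without top features, no trend and the replicate block (shared tissue code) gave 0 higher, with 57 to 653 genes at an unadjusted p under 0.05. The total over all genes gave 1 higher and 109 lower, and leaving out 1 library gave 0 to 21 higher and 0 to 3 lower. No paired analysis was possible between ages because no label ties an adult library to a P18 library.

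The median of all genes was 0.37 as deposited, -0.10 after quantile normalization, -0.14 with a common total and 0.06 with a common total without the top features and mitochondrial genes. Of 154 named genes 34 lost and 4 gained a call under at least 1 alternative, and 0 reversed. The top 10 share difference ranged from 0.53 to 1.26 and the mitochondrial share difference from -1.17 to -0.312 without 1 library. With 25107 to 132041 reads outside the top features, a 0 in 1 library cannot be told from a level of up to 3 reads. That level runs from about 6.01 units in WT P18 replicate 2 to 24.9 units in WT P18 replicate 3.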
